A study of Mus musculus with 6 samples.

Results

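The genes described here are 10 genes of fatty acid synthesis and malonyl-CoA control in the mouse heart, chosen by name: *Acaca*, *Acacb*, *Scd1*, *Scd2*, *Scd4*, *Fasn*, *Mlycd*, *Srebf1*, *Mlxipl* and *Acly*. They were measured by every probe that the array's annotation assigns to these symbols, which gave 25 of the 56605 non-control probes and 10 of the 27307 gene symbols on the array. The hearts came from male C57BL/6J *Clk4*-cKO mice, in which floxed exons of the kinase gene *Clk4* are deleted by α-MHC-MerCreMer, a tamoxifen-inducible Cre that the α-MHC promoter restricts to cardiomyocytes. All 6 animals carried this deletion, so the control hearts were mutant hearts too. Each had received an adeno-associated virus (AAV) intravenously at 5 weeks of age, with *Nexn* driven by the broadly active CMV promoter, and tamoxifen at 6 to 8 weeks. The 3 control animals received AAV NEXN-WT and the other 3 received AAV NEXN-S437E, a form of the Z-disc protein nexilin in which a glutamate stands in for a phosphorylated serine. In the methods, the cardiac phenotype was read 3 weeks after tamoxifen began, and no separate time is stated for the hearts used on the arrays. One-colour Agilent arrays were used, 1 per animal, and the question put to the lipogenic genes was whether their mRNA differed between NEXN-S437E and NEXN-WT hearts.

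Fatty acids are built in the cytosol from acetyl-CoA. ATP-citrate lyase (*Acly*) makes acetyl-CoA from citrate, acetyl-CoA carboxylase carboxylates it to malonyl-CoA, and fatty acid synthase (*Fasn*) extends the chain with malonyl-CoA units. Stearoyl-CoA desaturases (*Scd* genes) then place a double bond. In heart muscle, malonyl-CoA is better known as an inhibitor than as a building block: the carboxylase isoform encoded by *Acacb* sits at the outer mitochondrial membrane, where its product blocks carnitine palmitoyltransferase 1 and with it the entry of fatty acids into mitochondria, and malonyl-CoA decarboxylase (*Mlycd*) removes it. The transcription factors SREBP-1 (*Srebf1*) and ChREBP (*Mlxipl*) are the textbook activators of this programme in liver and fat.

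The probe sequences are shown for the genes on which the results turn, *Acacb* and *Scd4*, because different probes of each of these genes gave differences of unequal size. All are 60-base oligonucleotides written 5′ to 3′. *Acacb* is read by 3 probes on chromosome 5 (mm9). The probe A_55_P2921709 crosses the annotated start of *Acacb*: its bases 14 to 52 were identical to the RefSeq window around that start (GRCm38.p6), and none of the 13 bases before them matched that window at the adjoining positions. Bases 14 to 43 are printed with the first 3 bases from that start in capitals. The deposited coordinates of this probe, chr5:114596822-114615564, span 18743 bases, and its annotation is to a predicted transcript, XM_006530115. The other probes are annotated to NM_133904. A_66_P110803 (chr5:114667674-114667733) lies farther along the gene and is printed whole. The third, A_55_P2019054 (chr5:114700702-114700761), lies 33028 bases beyond it.
A_55_P2921709: gttgcctgaATGgtcttgcttctctttctg
A_66_P110803: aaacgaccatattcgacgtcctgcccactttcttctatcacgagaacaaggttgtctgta

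The *Scd4* probes lie on chromosome 19 (mm9). A_55_P2011872 (chr19:44420742-44420801) and A_55_P2538668 (chr19:44421034-44421093) are both annotated to the transcript NM_183216, and their starts are 292 bases apart. A_52_P603237 (chr19:44408983-44409042) carries no transcript in the annotation and lies 11759 bases before A_55_P2011872. Their bases 1 to 30 are printed without capitals, since no motif or site is marked. None of the 3 shares a stretch of 20 bases, on either strand, with any other probe of the array, those of *Scd1* and *Scd2* included. A_55_P2538668 shares such a stretch with 1 of 32851 RefSeq promoter windows, that of the non-coding gene *Gm51802* on chromosome 10.
A_55_P2011872: tctgagaacacattgtgctgtgggggctcc
A_55_P2538668: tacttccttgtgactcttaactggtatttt
A_52_P603237: aaaggtggagggataactgtatgacaaagg

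Of the 25 member probes, 16 were tested, the condition being a signal well above background in all 3 hearts of 1 group or of both, and each of the 10 genes had at least 1 of them. All 16 were in fact well above background on all 6 arrays, so none entered through 1 group alone. Another 7 stayed at background in all 6 hearts: 5 of the 7 *Acaca* probes, *Scd1* A_55_P2743499 and *Scd4* A_52_P603237. The remaining 2 were above background on some arrays and were not tested. *Mlxipl* A_55_P2728555 was so on 1 array of each group and shares a 20-base stretch with 9 other probes of the array. *Acly* A_55_P2082914 was so on 2 NEXN-WT arrays and no NEXN-S437E array, with values of −2.25, −3.47 and −3.90 in NEXN-WT hearts and of −3.47, −3.59 and −3.39 in NEXN-S437E hearts. Every level given here is a log2 signal relative to the 75th percentile of its own array, and every difference is NEXN-S437E minus NEXN-WT on that log2 scale. A probe was called where it passed the thresholds of the study, a 2-fold change and an unadjusted p of 0.05 (limma), and "rose" or "fell" is written only of called probes.

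Across the array, 2.52% of the 22998 tested probes were called (579 probes, 169 of them higher and 410 lower). With the percentile taken over detected probes the share of higher calls went from 29.2% to 18.6%, with a shift of −0.11 in the median difference of all probes, and with normexp background correction it was 13.9%. Without the filter on dim probes it was 72.5% (1645 of 2269 calls among 56605 probes). The 75th percentile of the signal was highest for NEXN-WT replicate 1 (273) and lowest for NEXN-S437E replicate 1 (110). Replicates 2 and 3 had 175 and 154 with NEXN-WT, against 160 and 142 with NEXN-S437E. The share of spots well above background had its extremes in the same hearts, 47.8% and 41.9%. The part of array brightness in the scaled differences of dim probes, the called *Acacb* and *Scd4* probes among them, was not tested. NEXN-WT replicate 1 stood apart from its group: its mean absolute difference from the other 2 NEXN-WT arrays was 0.38 and 0.44, against 0.25 between those 2. Without it 361 probes were called, 101 of them higher and 260 lower. Without NEXN-WT replicate 3 there were 900 calls, 349 higher and 551 lower, and without NEXN-WT replicate 2 there were 793, of which 289 were higher. *Clk4* itself (A_52_P445387, not placed inside or outside the deleted exons) differed by 0.13 and the *Nexn* probes by 0.02 and 0.14, none of them called. Of 10 cardiomyocyte markers, 10 had higher values with NEXN-S437E and none was called, with a median difference of 0.42 (0.30 without NEXN-WT replicate 1), and their mean level was 7.16 to 7.55 on the NEXN-WT arrays, lowest on replicate 1, and 7.76 to 7.87 on the NEXN-S437E arrays. Atrial markers went the other way: of 3 tested, *Nppa* fell by 1.39 and *Dkk3* fell by 3.34 on the log2 scale (adjusted p = 0.0254 and 0.0631), and *Myl4* differed by −0.62 (adjusted p = 0.227). Of 8 fibroblast markers, 4 fell and none rose, with a median difference of −1.10, and 3 of 5 tested T cell markers were called lower, of which *Cd3g* was at background in the NEXN-S437E hearts. Of 8 tested skeletal muscle markers none rose and 2 were called lower, with a median difference of 0.16 (−0.03 without NEXN-WT replicate 1). They were *Acta1*, the skeletal actin gene, and *Tnnt3*, a fast skeletal troponin T gene. *Acta1* fell by 1.28 on the log2 scale (adjusted p = 0.146), and by 1.66 without NEXN-WT replicate 1. *Tnnt3* did not clear background in the NEXN-S437E hearts, so it was tested only through the group in which it was high. Without NEXN-WT replicate 1 *Tnnt3* was no longer called. None of 9 macrophage and 7 endothelial markers was called, with medians of 0.01 and 0.05 (0.04 and −0.11 without NEXN-WT replicate 1). RNA came from whole myocardium, where fewer cells of a type and less RNA per cell cannot be told apart.

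Of the 16 tested member probes, 2 rose with NEXN-S437E and none fell, which is read against 0.735% of all tested probes called higher and 1.78% called lower, shares that move with the NEXN-WT arrays as given above. They belong to *Acacb* and *Scd4*. None of the 16 passed an adjusted p of 0.05, which 0.161% of all tested probes did, and the smallest adjusted p of a member was 0.103 (limma with Benjamini-Hochberg adjustment). That share stands for 37 probes and depended on single arrays. The number was 128 without NEXN-WT replicate 1, 12 without replicate 2 and 63 without replicate 3, it was 24, 19 and 16 without NEXN-S437E replicates 1, 2 and 3, and it was 668 with array weights. *Scd4* A_55_P2011872 passed without NEXN-WT replicate 3 (adjusted p = 0.0119) and with array weights (adjusted p = 0.0236), and *Acacb* A_66_P110803 with array weights (adjusted p = 0.0446). Without the fold threshold, 4 probes were higher and 2 lower at an unadjusted p of 0.05, against 10.5% and 6.7% of all probes (17.2% in either direction). The groups did not overlap for 3 probes that were higher and 2 that were lower, against 18.7% and 9.17% of all probes (27.9% in either direction). Of the 16 probes, 11 had higher means with NEXN-S437E, against 60.8% of all tested probes. Their median difference was 0.10, against 0.09 for all tested probes, over members with differences in both directions. Within a group, the median SD of a member probe was 0.27 (NEXN-WT) and 0.17 (NEXN-S437E), and with 3 hearts in each group the precision of each difference is limited by their number.

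**Figure D1:**
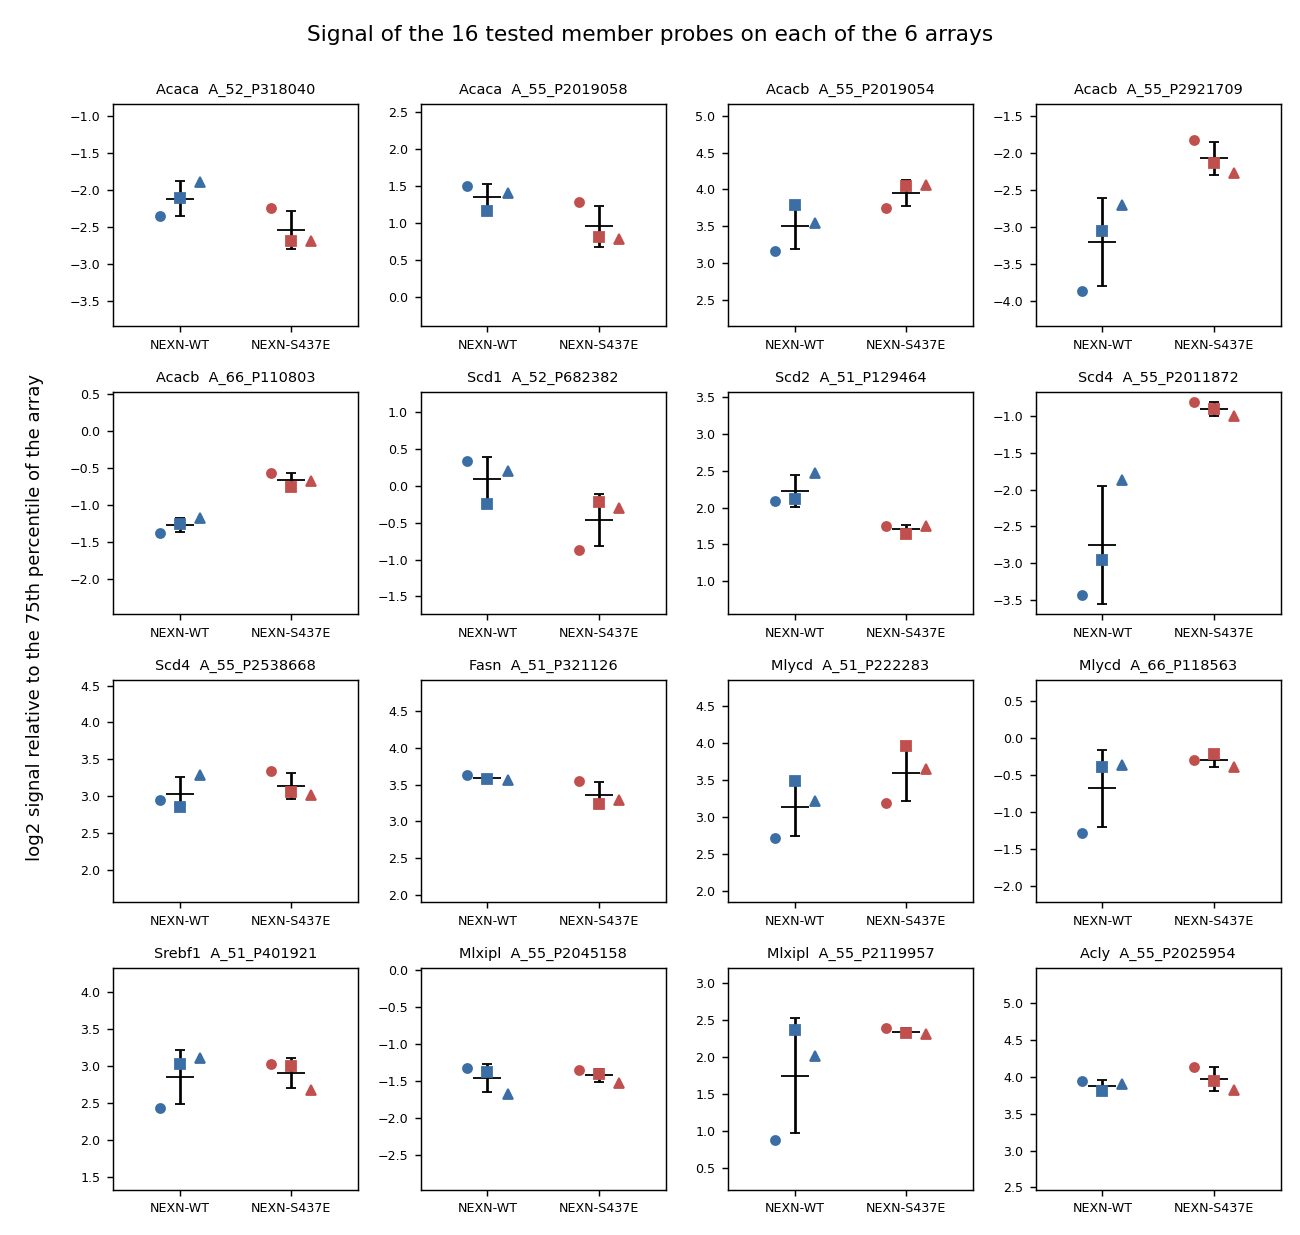
Log2 signal relative to the 75th percentile of the array (vertical axis, a range of at least 3 log2 units in each panel) for the 16 tested member probes in NEXN-WT (blue) and NEXN-S437E (red) hearts. Circles, squares and triangles are replicates 1, 2 and 3, and bars are the mean and SD of 3 arrays. *Scd4* A_55_P2011872 and *Acacb* A_66_P110803 and A_55_P2921709 lie higher in all 3 NEXN-S437E hearts, *Scd2* and *Fasn* lie lower, and the other panels overlap.

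The carboxylase step gave 1 of the called probes. The *Acacb* probe over the annotated start, A_55_P2921709, had values of −3.86, −3.05 and −2.70 in NEXN-WT hearts and of −1.82, −2.13 and −2.27 in NEXN-S437E hearts. All 3 NEXN-S437E values were above all 3 NEXN-WT values. This probe rose by 1.13 on the log2 scale (standard error 0.29, 95% interval 0.46 to 1.80, adjusted p = 0.151), with an unadjusted p of 0.00459 from limma. NEXN-WT replicate 1 gave the lowest of its values, and without it the difference was 0.80 and no longer reached 2-fold. The call was also lost with normexp background correction, at 0.54, and with array weights, at 0.84. Its processed signals before scaling were 18.8, 21.1 and 23.6 in NEXN-WT hearts and 31.2, 36.5 and 29.5 in NEXN-S437E hearts, likewise without overlap.

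The other *Acacb* probes pointed the same way by smaller amounts. A_66_P110803 had values of −1.38, −1.25 and −1.18 with NEXN-WT and of −0.57, −0.76 and −0.67 with NEXN-S437E. The 2 groups did not overlap and each was tight, with SDs of 0.10 and 0.09 (n = 3 each). The difference was 0.60 (standard error 0.14, adjusted p = 0.134), under 2-fold, and 0.55 without NEXN-WT replicate 1. The separation came with the scaling, since the unscaled signals of this probe were 67.8 to 105 with NEXN-WT and 74.1 to 94.1 with NEXN-S437E. A_55_P2019054, the farthest along the gene of the 3 probes, had values of 3.17, 3.79 and 3.54 with NEXN-WT and of 3.75, 4.05 and 4.06 with NEXN-S437E. Here NEXN-WT replicate 2 lay above NEXN-S437E replicate 1, and the difference was 0.45 (standard error 0.19, adjusted p = 0.287). It was 0.29 without NEXN-WT replicate 1. All 3 *Acacb* probes were thus higher with NEXN-S437E, by 0.45 to 1.13 on the log2 scale, in the same hearts in which the cardiomyocyte markers had a median difference of 0.42, and the part of the cardiomyocyte share in the *Acacb* values was not tested.

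*Acaca*, which encodes the cytosolic carboxylase isoform that feeds fatty acid synthesis, had values in the opposite direction without a call. The 2 tested probes lie on chromosome 11, 734 bases apart. A_55_P2019058 (chr11:84215093-84215152) had values of 1.497, 1.16 and 1.41 with NEXN-WT and of 1.28, 0.81 and 0.78 with NEXN-S437E. Replicate 1 of NEXN-S437E lay inside the NEXN-WT range. The difference was −0.40 (standard error 0.19, adjusted p = 0.314), and for A_52_P318040 (chr11:84214359-84214418) it was −0.42 (standard error 0.19, adjusted p = 0.303), also with overlap. With normexp background correction the latter was −0.0022, and with the slide row as a block the differences were −0.08 and −0.13. The other 5 *Acaca* probes, between −6.09 and −3.55 on the 6 arrays, stayed at background. Among them are A_52_P132591 and A_55_P2931361, which share 36 bases with each other and are annotated to predicted transcripts.

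Whether the carboxylase isoforms differed by unequal amounts was tested within arrays, where the scaling cancels. The log2 difference between *Acacb* A_55_P2019054 and *Acaca* A_55_P2019058 was 1.67, 2.63 and 2.14 in NEXN-WT hearts and 2.47, 3.24 and 3.28 in NEXN-S437E hearts. Replicate 1 of NEXN-S437E again lay inside the NEXN-WT range. The shift was 0.85 (exact permutation test over the 20 arrangements of 3 against 3, two-sided, p = 0.2, adjusted over 4 pairs 0.267), where 3 against 3 cannot give a p below 0.1. A further comparison, chosen after the values had been seen, set A_55_P2921709 against A_55_P2019054. Their within-array difference shifted by 0.68 with overlap between the groups (exact permutation p = 0.2). It was 0.91 without NEXN-WT replicate 3 (exact permutation p = 0.1) and 0.08 with normexp (exact permutation p = 1). A p of 0.05 is out of reach with 3 against 3, so whether these probes, annotated to different transcripts, moved unequally is not settled.

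Malonyl-CoA removal, read from *Mlycd*, gave no call. A_51_P222283 (chr8:121934893-121934952) had values of 2.70, 3.49 and 3.21 with NEXN-WT and of 3.19, 3.96 and 3.65 with NEXN-S437E. Its groups overlapped, and the difference was 0.46 (standard error 0.26, 95% interval −0.14 to 1.07). A_66_P118563 (chr8:121925470-121926369) had a difference of 0.38 (standard error 0.25, 95% interval −0.20 to 0.96). In both probes NEXN-WT replicate 1 was the lowest array, and without it the differences were 0.25 and 0.08. With the slide row as a block, A_51_P222283 differed by 0.05. *Acacb* minus *Mlycd* within arrays was 0.47, 0.30 and 0.33 with NEXN-WT and 0.56, 0.09 and 0.41 with NEXN-S437E. The shift of this difference was −0.01 (exact permutation p = 1, adjusted over 4 pairs 1), with overlap between the groups.

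Among the desaturases, 1 of the 2 tested *Scd4* probes was called and *Scd1* and *Scd2* were not. *Scd4*, a paralogue in the *Scd* cluster of chromosome 19 that is known for its expression in heart, held the largest difference of all member probes. *Scd4* A_55_P2011872 had values of −3.43, −2.95 and −1.87 in NEXN-WT hearts and of −0.81, −0.90 and −0.999 in NEXN-S437E hearts. The NEXN-WT values were spread over more than 1 log2 unit, while the NEXN-S437E values lay within an SD of 0.09, and all 3 were above the highest NEXN-WT value. The probe rose 3.60-fold, a log2 difference of 1.85 (standard error 0.36, 95% interval 1.03 to 2.67, adjusted p = 0.103), with an unadjusted p of 0.000835 from limma. It was called with any 1 array left out, with differences of 1.51 to 2.29. The lowest was the fit without NEXN-WT replicate 1. With normexp background correction the difference was 0.95, under 2-fold, and the probe was not called. Its unscaled signals were 25.2, 22.5 and 42.2 with NEXN-WT and 62.8, 85.3 and 71.0 with NEXN-S437E.

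The other tested *Scd4* probe did not follow. A_55_P2538668, annotated to the same transcript, had values of 2.95, 2.85 and 3.29 with NEXN-WT and of 3.34, 3.06 and 3.02 with NEXN-S437E. These overlapped, and the difference was 0.11 (standard error 0.17, 95% interval −0.29 to 0.51, adjusted p = 0.756; 0.07 without NEXN-WT replicate 1), of which the sign turned under the percentile over detected probes and under normexp. In a comparison chosen after the values had been seen, A_55_P2011872 minus A_55_P2538668 was −6.38, −5.81 and −5.15 in NEXN-WT hearts and −4.15, −3.96 and −4.02 in NEXN-S437E hearts. The groups did not overlap, and the shift of 1.74 reached the smallest p that 3 against 3 allows (exact permutation p = 0.1). Probes 292 bases apart, annotated to the same transcript, thus gave differences of 1.85 and 0.11. Which of them reads the *Scd4* transcript was not determined, so the 3.60-fold rise is that of 1 probe. The deposited normalized values gave differences of 1.82 and 0.01 for these probes.

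*Scd1* and *Scd2*, the broadly expressed desaturases, were lower with NEXN-S437E without reaching 2-fold. *Scd2* A_51_P129464 (chr19:44381024-44381083) had values of 2.08, 2.12 and 2.47 with NEXN-WT and of 1.74, 1.65 and 1.75 with NEXN-S437E. No NEXN-S437E heart reached the lowest NEXN-WT heart, and the difference was −0.51 (standard error 0.16, adjusted p = 0.195). *Scd1* A_52_P682382 (chr19:44469387-44469446) had values of 0.33, −0.25 and 0.19 with NEXN-WT and of −0.87, −0.22 and −0.30 with NEXN-S437E. Its groups overlapped, and the difference was −0.55 (standard error 0.23, adjusted p = 0.274). It was −0.35 without NEXN-S437E replicate 1, −0.31 with normexp, −0.28 with array weights and −0.96 with the slide row as a block. Within arrays, *Scd4* A_55_P2538668 minus *Scd2* was 0.87, 0.73 and 0.81 with NEXN-WT and 1.59, 1.41 and 1.27 with NEXN-S437E. This shift of 0.62 and that of *Scd4* minus *Scd1*, 0.66, both came without overlap between the groups (exact permutation p = 0.1 each, adjusted over 4 pairs 0.2), which is the smallest p possible here. The shift against *Scd2* was 0.54 to 0.70 under the other scalings, with normexp and with 1 array left out. Blocks and array weights were not run on these pairs. With the slide row as a block in limma, *Scd4* A_55_P2538668 differed by 0.31 and *Scd2* by −0.48. That against *Scd1* was 0.21 with normexp (exact permutation p = 0.5), 0.36 without NEXN-S437E replicate 1 and 0.50 without NEXN-WT replicate 1 (exact permutation p = 0.3 each).

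**Figure D2:**
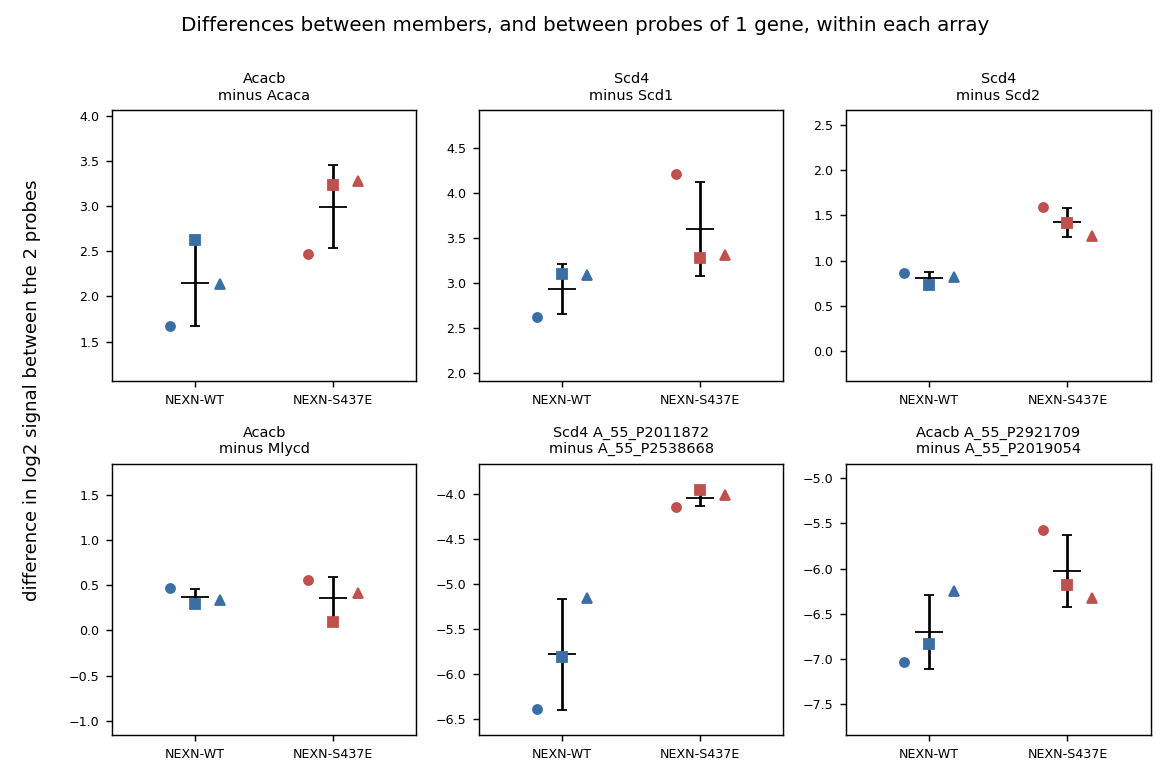
Difference in log2 signal between 2 probes on the same array (vertical axis) for the 4 pairs of genes and, in the last 2 panels, for 2 probes of the same gene, in NEXN-WT (blue) and NEXN-S437E (red) hearts. Circles, squares and triangles are replicates 1, 2 and 3, and bars are the mean and SD of 3 arrays. *Scd4* minus *Scd1*, *Scd4* minus *Scd2* and the 2 *Scd4* probes shifted without overlap, and the other 3 panels overlap.

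*Fasn*, *Acly* and the genes of the activators gave no call. *Fasn* A_51_P321126 (chr11:120668460-120668519) had values of 3.63, 3.58 and 3.56 in NEXN-WT hearts and of 3.55, 3.24 and 3.29 in NEXN-S437E hearts. The groups just failed to overlap, and the difference of −0.23 (standard error 0.15, adjusted p = 0.436) did not pass the test. It was −0.35 both under quantile normalization and in the deposited normalized values, −0.34 with the percentile over detected probes and −0.36 with normexp, each with an unadjusted limma p between 0.0134 and 0.0487 and an adjusted p between 0.217 and 0.317, and −0.04 with the slide row as a block. *Acly* A_55_P2025954 (chr11:100337674-100337733) had values of 3.94, 3.80 and 3.91 with NEXN-WT and of 4.14, 3.94 and 3.82 with NEXN-S437E. These overlapped, with a difference of 0.08 (standard error 0.15, 95% interval −0.26 to 0.42).

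*Srebf1* A_51_P401921 (chr11:60013214-60013273) had values of 2.43, 3.03 and 3.11 with NEXN-WT and of 3.04, 3.01 and 2.68 with NEXN-S437E. The groups overlapped, and the difference was 0.05 (standard error 0.21, 95% interval −0.44 to 0.55), and −0.16 without NEXN-WT replicate 1. *Mlxipl* was read by 2 tested probes, 490 bases apart on chromosome 5. A_55_P2119957 (chr5:135613705-135613764) had values of 0.88, 2.36 and 2.01 with NEXN-WT and of 2.39, 2.32 and 2.31 with NEXN-S437E. Its difference of 0.59 (standard error 0.34, adjusted p = 0.393) lay largely in NEXN-WT replicate 1, and without that array it was 0.15. A_55_P2045158 (chr5:135614195-135614252) had values of −1.32, −1.38 and −1.69 with NEXN-WT and of −1.35, −1.41 and −1.53 with NEXN-S437E, with overlap and a difference of 0.04 (standard error 0.16), or 0.11 without NEXN-WT replicate 1. The signs of the *Acly*, *Srebf1* and A_55_P2045158 differences turned under at least 1 other scaling of the arrays.

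**Figure D3:**
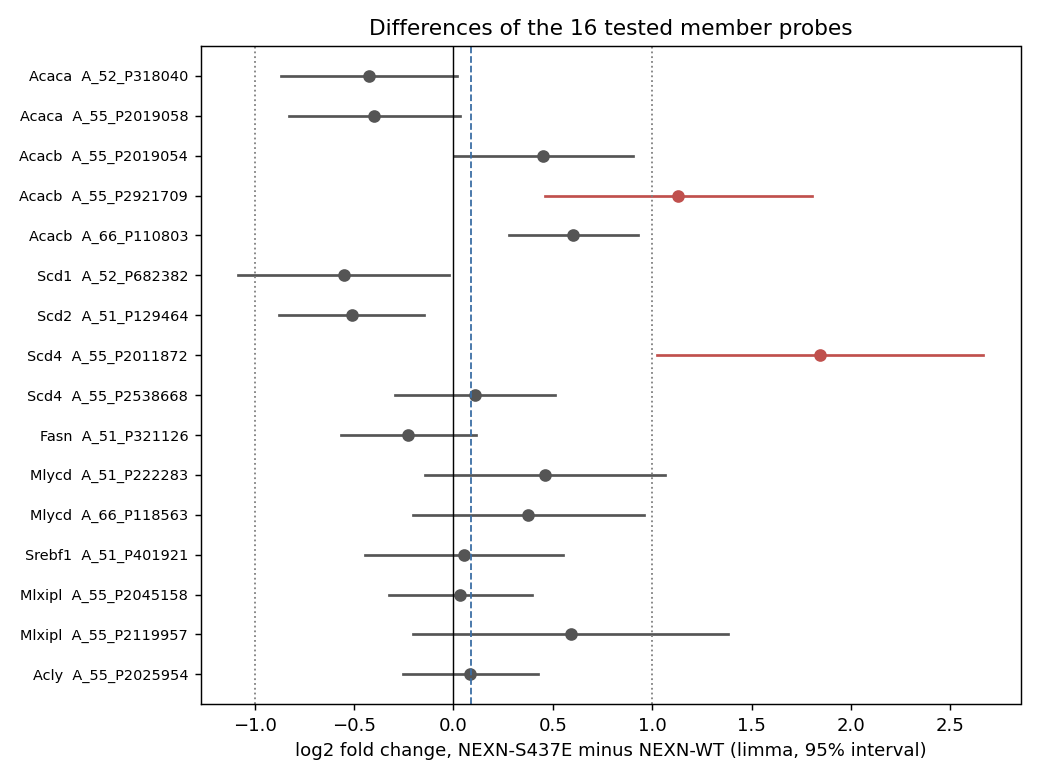
Log2 fold change, NEXN-S437E minus NEXN-WT, of the 16 tested member probes (points) with 95% intervals from limma (lines). Red marks the 2 called probes, the dashed line the median of all tested probes (0.09) and the dotted lines a 2-fold change. The 3 *Acacb* probes lie above 0, the *Acaca*, *Scd1*, *Scd2* and *Fasn* probes below it, and the 2 *Scd4* probes apart from each other.

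NEXN-WT replicate 1 was the lowest NEXN-WT array for 10 of the 16 tested member probes. It lay below the other 5 arrays for the *Acacb* and *Mlycd* probes, *Srebf1*, *Scd4* A_55_P2011872 and *Mlxipl* A_55_P2119957. It was not the lowest NEXN-WT array for *Scd1*, *Fasn*, *Acly*, *Acaca* A_55_P2019058, *Scd4* A_55_P2538668 or *Mlxipl* A_55_P2045158.

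RefSeq promoter windows (GRCm38.p6) were at hand for 8 of the 10 genes, 11 windows in all, and the 250 bases before each annotated start were searched on both strands for the letters bound by regulators of lipogenesis. The E-box CACGTG, the core of the ChREBP element, was found in 1 of the 11, a *Mlxipl* window, and in 6.02% of all 32851 windows. The sterol regulatory element TCACNCCAC was found in the other *Mlxipl* window only, and in 1.05% of all windows. CCAAT boxes were in 6 of the 11 (33.8% of all windows) and GGGCGG boxes in 4 (32.7%). The nuclear receptor half-site AGGTCA was in 1, the *Acly* window (14.0% of all windows). The *Acacb* window held 1 CCAAT box and the *Scd4* window none of the letters searched, AGGTCA included. *Scd1* and *Scd2* have no entry.

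The other genes of the pathway were described from 7 lists, of which 91 of the 103 genes on the array were tested, each by its probe of highest mean. Of these, 1 rose and none fell, against 0.771% of all 13747 tested genes called higher and 2.15% called lower (2.92% in all). At an unadjusted p of 0.05, 12 were higher and 3 lower, against 10.1% and 7.91% of all genes (18% in either direction). The median difference over the 91 genes was 0.15, and over all tested genes 0.07. Without NEXN-WT replicate 1 these medians were 0.08 and 0.04.

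The gene that rose was *Dgat2*, which encodes an enzyme of the last step of triglyceride synthesis and stood in the glycerolipid list (13 genes tested, median 0.20, and 0.09 without NEXN-WT replicate 1). Its values were 5.61, 6.39 and 7.04 in NEXN-WT hearts and 7.63, 7.33 and 7.499 in NEXN-S437E hearts. All NEXN-S437E hearts were above all NEXN-WT hearts, of which replicate 1 was the lowest. The log2 difference was 1.13 (standard error 0.33, adjusted p = 0.181), and 0.77 without NEXN-WT replicate 1, under 2-fold. *Dgat2* was also not called under quantile normalization, with normexp, in the deposited normalized values, with array weights or by the methods' t-test.

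The list of malonyl-CoA targets and of AMPK, the kinase that inactivates acetyl-CoA carboxylase, had a median of 0.29 over 14 genes (0.10 without NEXN-WT replicate 1), with 3 genes higher and 1 lower at an unadjusted p of 0.05. The highest difference was that of *Cpt2*, the carnitine palmitoyltransferase of the inner mitochondrial membrane, at 0.69 (standard error 0.22, adjusted p = 0.2), and 0.45 without NEXN-WT replicate 1. The lowest was that of *Cpt1c*, the brain-type isoform of carnitine palmitoyltransferase 1, at −0.89 (standard error 0.20, adjusted p = 0.133). *Cpt1c* A_55_P2932214 had values of 0.15, −0.32 and −0.28 with NEXN-WT and of −0.71, −1.20 and −1.20 with NEXN-S437E, without overlap. A second *Cpt1c* probe, A_55_P2032750, was well above background in the 3 NEXN-WT hearts and in no NEXN-S437E heart, and so was tested only through the group in which it was high. Its NEXN-S437E level has only a bound, being at least 1.09-fold lower. The limma adjusted p of 0.159 is that of the measured values, those at background included, and not of the bound. This bound takes the lowest signal well above background for the dim arrays and does not reach 2-fold. *Cpt1b* and *Cpt1a*, the muscle and liver isoforms on which malonyl-CoA acts, were named after their values had been seen. *Cpt1b* differed by 0.41 (standard error 0.21, adjusted p = 0.351) and *Cpt1a* by −0.14 (standard error 0.19, adjusted p = 0.721). Without NEXN-WT replicate 1 these differences were 0.18 and 0.04, the latter with its sign turned.

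In mitochondrial fatty acid synthesis, a separate pathway that makes the lipoic acid precursor and uses malonyl-CoA inside the organelle, all 8 genes had higher means with NEXN-S437E and none was called. Their differences ran from 0.21 for *Mecr*, the enoyl reductase, to 0.58 for *Cbr4*, a subunit of the ketoreductase, with a median of 0.46, beside the median of 0.42 for the cardiomyocyte markers. Without NEXN-WT replicate 1, 7 of the 8 were higher, *Mecr* differed by −0.01, and the median was 0.26, beside 0.30 for the cardiomyocyte markers. The mean level of this list was 1.32 on NEXN-WT replicate 1, 1.82 and 1.98 on the other NEXN-WT arrays and 2.07 to 2.20 on the NEXN-S437E arrays. The part of the cardiomyocyte share in it was not tested.

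Genes of acetyl-CoA and NADPH supply had a median of 0.21 over 10 genes (0.09 without NEXN-WT replicate 1). The highest was *Acss1*, a mitochondrial acetyl-CoA synthetase, at 0.84 (standard error 0.21, adjusted p = 0.139), without overlap between the groups. It was 0.62 without NEXN-WT replicate 1. The lowest was *Idh1*, the cytosolic isocitrate dehydrogenase, at −0.57 (standard error 0.71), which rested on 1 value of −5.03 in NEXN-S437E replicate 1. *Idh1* was well above background in 3 NEXN-WT and 2 NEXN-S437E hearts, so it was tested only through NEXN-WT. The elongation and desaturation list had a median of −0.06 over 11 genes (−0.03 without NEXN-WT replicate 1), from −0.35 for the desaturase *Fads2* to 0.51 for the elongation reductase *Tecr*. *Fads2* was well above background in 3 NEXN-WT and 2 NEXN-S437E hearts, so it was tested only through the group in which it was higher. *Tecr* differed by 0.13 without NEXN-WT replicate 1, and *Elovl2*, *Elovl3*, *Elovl4* and *Scd3* stayed at background throughout. Regulators of lipogenesis had a median of 0.12 over 16 genes (0.0041 without NEXN-WT replicate 1), from −0.29 for the E-box factor *Usf1* to 0.59 for *Thrsp*, the thyroid hormone responsive Spot 14 gene (standard error 0.21, adjusted p = 0.227). In sterol synthesis, the other SREBP programme, the median was 0.11 over 19 genes (0.08 without NEXN-WT replicate 1). *Fdft1*, squalene synthase, was highest at 0.99 (standard error 0.28, adjusted p = 0.175), and *Sqle*, which acts on squalene next, was lowest at −0.79 (standard error 0.27, adjusted p = 0.217). Without NEXN-WT replicate 1 they differed by 0.66 and −0.65. Neither reached 2-fold, and these neighbouring steps differed in opposite directions.

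**Figure D4:**
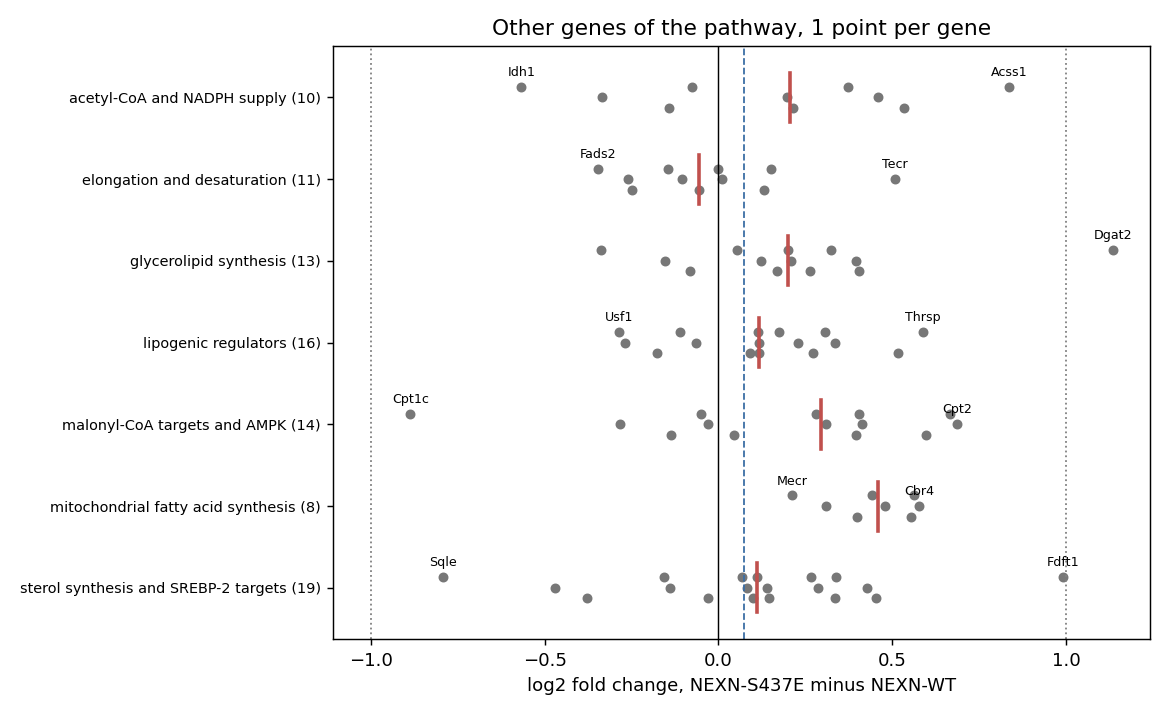
Log2 fold change, NEXN-S437E minus NEXN-WT (horizontal axis), of the tested genes of 7 lists around the pathway, 1 point per gene at its probe of highest mean, with the number tested in brackets. Red bars are list medians, the dashed line is the median of all tested genes (0.07) and the dotted lines mark a 2-fold change, which *Dgat2* alone passed. Points are spread vertically for legibility.

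Fat attached to the heart also expresses these genes, and its markers were read beside them. Of 12 white adipocyte markers, *Plin1*, *Retn* and *Tshr* stayed at background in all hearts and 5 genes were tested. All 5 had higher means with NEXN-S437E and none was called, with a median difference of 0.36. The mean level over all 12 genes was −2.26 to −1.79 on the NEXN-WT arrays and −1.49 to −1.08 on the NEXN-S437E arrays. That mean includes the untested genes, so dim probes and those at background weigh in it. *Ucp1* and *Elovl3*, defining markers of brown fat, were at background on all arrays. Of the other 6 brown adipocyte markers, all tested, 5 had higher means without a call (median of the 6, 0.28, and 0.13 without NEXN-WT replicate 1). Among the 5, *Cox7a1* and *Cox8b* had NEXN-WT means of 9.73 and 8.25. The cardiomyocyte markers *Mybpc3* and *Myh6* had NEXN-WT means of 9.21 and 8.36. Whether the 5 genes report fat in whole myocardium was not tested. *Dio2*, the deiodinase that activates thyroid hormone, fell by 3.06 on the log2 scale (adjusted p = 0.111), and by 2.19 without NEXN-WT replicate 1. The part of adipose tissue in the *Scd4*, *Acacb* and *Dgat2* values was not tested. Of 5 hepatocyte markers, *Apoa1*, *Fgb* and *Ttr* were at background on all arrays, and *Serpina1a*, the 1 gene tested, differed by 0.55 (adjusted p = 0.552), and by 0.16 without NEXN-WT replicate 1.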

How the data were processed

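Total RNA from 6 hearts was labelled with Cy3 and hybridised to Agilent SurePrint G3 Mouse arrays (design 074809), all on 1 slide in 1 scan. Per the labels, the authors extracted the scans with Agilent Feature Extraction 10.7.1.1, and the intensity values they deposited are background-subtracted processed signals on a linear scale with no scaling between arrays. A second table, deposited for the whole series, holds log2 values that the authors had normalized, with identical sorted values in its 6 columns. The method is not given in the sources used here, and it served as an alternative. Probe coordinates and gene names are those of the deposited annotation (mm9). Without a genome of the same build, the position of a probe relative to exons and UTRs was not determined.

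Control and outlier spots were left out, the 75th percentile of each array was subtracted on the log2 scale, spots of a probe were averaged, and the 22998 probes with signals well above background in all 3 hearts of either group were compared with limma 3.58.1 (lmFit, eBayes) in R 4.3.3, with Benjamini-Hochberg adjustment over all of them. The methods name an unpaired test, so no block was used. Pairs of genes were compared by exact permutation over samples. Motifs and shared 20-base stretches were found with Python 3.11.15 in the deposited probe sequences and the RefSeq windows (GRCm38.p6). The test was checked on simulated data. All probes of the members were accounted for. Of each pathway list, genes past the study's thresholds were named, and otherwise the gene with the highest and the gene with the lowest difference. Marker lists were given by counts and medians, with only some of their genes named. The members, lists and tests were chosen with earlier results of these data known.

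The alternatives were quantile normalization, the percentile over detected probes, normexp background correction (offset 50), the deposited normalized values, no filter and a filter on all 6 arrays, outlier spots kept, blocks for the replicate number or for the slide row, array weights, an intensity trend, the methods' t-test, each array left out, 1 probe per gene, all probes, and a 1.5-fold threshold. The comparisons of 2 probes of the same gene and the list medians without NEXN-WT replicate 1 were additions, made once the values were known. Precision is limited by the number of arrays and by how far a signal lies over background. Samples of a group were separate animals.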

Additional observations from a re-analysis of the deposited data

How the results depend on the processing

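Dim probes and NEXN-WT replicate 1 set the limits. Both called member probes stayed higher under all 18 alternatives, *Scd4* A_55_P2011872 by 0.95 to 2.29 (adjusted p 0.0119 to 0.357) and *Acacb* A_55_P2921709 by 0.54 to 1.38 (adjusted p 0.0569 to 0.38). Not all of these could change a difference. The 2 filter settings, the replicate block, the intensity trend and the methods' t-test leave it as it was, and outlier spots kept gave the same values. The number of member probes called was 2, 0 with normexp background correction, 1 with array weights, 1 to 2 with an array left out (1 without NEXN-WT replicate 1), 0 with 1 probe per gene and 3 at 1.5-fold. With the replicate number as a block it was 2, and 591 probes were called in all. Same-numbered arrays did not deviate together (correlations −0.15, −0.03 and −0.18). With 3 arrays in each group such correlations cannot decide whether the numbers pair the hearts, and the methods name an unpaired test. The member median ranged from −0.01 to 0.21.

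The number of pathway genes called was 1, and 0 under quantile normalization, normexp, the deposited normalized values, array weights and the methods' t-test. It was 3 with the slide row as a block (*Dgat2*, *Fdft1* and *Idh1*), 0 to 3 with an array left out (0 and 3 when NEXN-WT replicate 1 or 2 was the array left out, 2 for each of the others), 2 with all probes (*Cpt1c* A_55_P2032750 added, a probe at background in the NEXN-S437E hearts, for which the bound is 1.09-fold) and 9 at 1.5-fold. The slide row holds NEXN-S437E replicate 1 beside all NEXN-WT arrays, so that block sets this 1 heart against them, and the called member probes then differed by 1.94 (*Scd4*) and 1.38 (*Acacb*), while *Scd1* differed by −0.96 and *Acacb* A_55_P2019054 by 0.25.

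Differences near 0 turned sign. *Scd4* A_55_P2538668 was −0.00070 with the percentile over detected probes and −0.10 with normexp. *Srebf1* was −0.037 under quantile normalization, −0.057 with the percentile over detected probes, −0.073 with normexp, −0.034 in the deposited values and −0.16 with array weights, and −0.16 to 0.18 with an array left out (negative without replicate 1 of either group). *Mlxipl* A_55_P2045158 was −0.075 with the percentile over detected probes and −0.076 to 0.11 with an array left out (negative without NEXN-WT replicate 3, and −0.0044 without NEXN-S437E replicate 1). *Acly* A_55_P2025954 was −0.047 under quantile normalization, −0.026 with the percentile over detected probes, −0.11 with normexp and −0.039 in the deposited values, and −0.0012 to 0.16 with an array left out (negative without NEXN-S437E replicate 1). *Acacb* minus *Mlycd* was 0.10 with normexp, 0.04 without NEXN-WT replicate 1 and 0.12 without NEXN-S437E replicate 2. Why these values moved was not tested.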
